A study of Gallus gallus with 4 samples.

Results

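Genes that copy DNA and divide the cell were read in the liver of young broiler chickens from 2 groups that differ in feed efficiency, the growth gained per unit of feed. The list of 45 genes holds 15 of DNA replication, 7 of the cyclins and CDK2 that drive a cell from growth into DNA synthesis, and 23 of mitosis. Members were found on the array through the RefSeq accession of each probe, which matched 36 of them (10, 7 and 19), out of 5382 genes named in this way. Of the 36, 33 gave a signal well above background on both arrays of a group, and these 33 did so on all 4 arrays. The other 3 were MCM5, CENPA and CENPK. No probe was matched here for MCM4, RRM2, CDC45, CDC6, CDT1, AURKA, SPC24, CENPC and RACGAP1. CCNB2 was matched by an accession that the gene table now lists as CCNB1, with CCNB2 as an older name.

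Both groups were coloured broilers of 35 days, kept singly with feed and water always at hand, and no other treatment was labelled. Each had 2 one-colour Agilent arrays of pooled RNA. The labels of group 1 call it high and those of group 2 low, and they use these words for feed efficiency and for residual feed intake alike. Residual intake is what a bird eats above the amount its growth and size predict. A high residual intake usually goes with low efficiency, so the groups keep their numbers. The design text speaks of 4 to 5 birds per group and of pools divided in duplicate. P-values thus measure the spread between arrays, which in group 1 may be technical. The group 2 arrays differ in labelled sexes and in sex-linked signal and so do not hold 1 divided pool. The pools average over birds, and the spread between single birds was not measured.

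The arrays stood apart in some ways that touch the values below. Across probes, r was 0.989 between the group 1 arrays, with the group 2 arrays at 0.966 and pairs across groups at 0.931 to 0.946. Between 72.3% and 80.2% of probes were well above background. The labels name females for all arrays except group 2 replicate 2, with 1 male and 1 female. Hens carry Z and W chromosomes and cocks a pair of Z. Yet on the array labelled group 2 replicate 1, Z-linked probes (n = 416) had a median 0.50 log2 units above the other arrays and W-linked probes (n = 34) one of -0.91. On group 2 replicate 2 these medians were -0.16 and 0.51. The label of group 2 replicate 1 therefore does not match its sex-linked signal. Replicate 2 lay near the group 1 arrays (Z-linked -0.16 and -0.19, W-linked 0.32 and 0.38), though its label names a male. HINTW, a W-linked gene, had a median of -9.58 against group 1 on replicate 1 and -0.29 on replicate 2. Results are also given without each group 2 array, and leaving out either does not settle the labels. All 4 arrays shared 1 slide, with each group in its own positions, so group and position cannot be told apart.

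In a dividing cell, the origin recognition complex loads the ring of MCM proteins onto DNA, cyclin-bound kinases start the ring as a helicase, and polymerases held by the PCNA clamp copy the strands. Chromosomes are then compacted by condensin, held by kinetochores on the spindle, checked by the spindle checkpoint and pulled apart before the cell divides. Liver cells of a grown animal rarely divide, but the liver of a growing chick still adds cells, and blood, vessel and immune cells within it can divide as well. In bulk RNA, fewer cycling cells and less RNA per cell cannot be told apart.

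2 cell cycle genes differed between the groups past the test. KIF23, the motor protein that builds the midzone of the spindle and is needed for the final cut between daughter cells, was 7.09-fold lower in group 1. MCM3, a subunit of the replicative helicase, was 2.43-fold higher in group 1. They made up 6.06% of the 33 tested members. Among all 4872 tested genes 9.67% passed, 5.75% higher and 3.92% lower in group 1, so the share among the members was not above that of all genes. The arrays of the groups did not overlap for 22 members (66.7%), against 68.1% of all genes. Group 1 was wholly above for 14 (40.3% of all genes) and group 2 for 8 (27.8% of all genes). At an unadjusted p under 0.05 there were 5 members on the higher side (19.1% of all genes) and 5 on the lower (12.5%), where 31.6% of all genes lay on either side. The test was limma over all probes with Benjamini-Hochberg adjustment, and a gene passed where its adjusted p was under 0.05.

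Signals are given as log2 of the intensity relative to the 75th percentile of the same array, so that 0 is a fairly bright probe and each unit a factor of 2. Differences are group 1 minus group 2 with the standard error of the fit (SE, n = 2 arrays per group). Each gene is represented by its brightest probe. With 2 arrays against 2, an exact permutation test of 1 gene cannot give a p below 0.333.

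**Figure D1:**
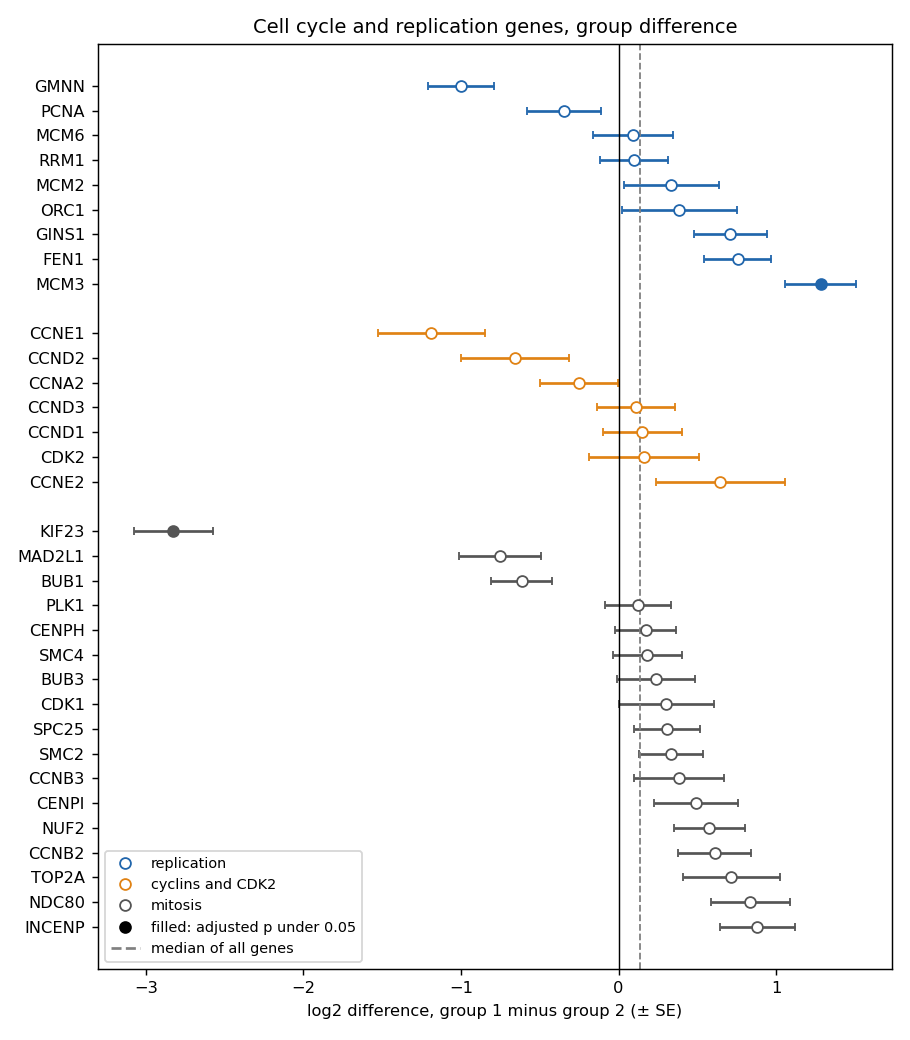
Log2 difference between the groups (group 1 minus group 2) for the 33 measured members, with bars of 1 SE from limma, ordered within replication, cyclins with CDK2, and mitosis. Filled points passed at an adjusted p under 0.05: KIF23 at -2.83 and MCM3 at 1.28, while the other 31 points are open and the dashed line is the median of all genes (0.14).

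Among the replication genes, only the helicase subunit MCM3 passed the test. MCM3 (NM_001006421, chromosome 3) had log2 signals of -0.57 and -0.81 in group 1 and of -1.84 and -2.11 in group 2. All group 1 values lay above all group 2 values, by more than either group's own spread. The difference was 1.28 ± 0.23 (limma, adjusted p = 0.0405). MCM3 did not pass in 7 of 15 alternative settings, among them median scaling (0.0515), the replicate number as a block (0.0573), averaged probes (0.0583) and no filter on dim probes (0.0658). Before scaling, its intensity was 658 and 827 in group 1 and 328 and 296 in group 2.

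Other subunits of the same ring differed less. MCM2 had signals of 0.24 and 0.19 in group 1, and of 0.24 and -0.47 in group 2, so the groups overlapped. Its difference of 0.33 came from group 2 replicate 2, and without that array it was -0.02. The second probe of MCM2 gave -0.34 ± 0.32. MCM6 differed by 0.09 ± 0.26 and its groups overlapped too. MCM5 was well above background on 1 array of each group and was not tested. Whether MCM3 differed more than MCM2 or MCM6 was not tested.

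GMNN encodes geminin, which holds back the loading of new MCM rings once replication has begun. Its log2 signals were -1.48 and -1.26 in group 1 and -0.33 and -0.41 in group 2. Here group 2 stood wholly above group 1, the opposite order to MCM3. The difference of -1.001 ± 0.208 did not pass (adjusted p = 0.0514), and its other probe gave -0.80. GMNN passed in 4 of the 11 alternative settings that kept all arrays, with adjusted p = 0.0418 when arrays were scaled on their medians and 0.0464 when only probes well above background on all arrays were kept.

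FEN1, the nuclease that trims the ends of the fragments made on the lagging strand, had signals of 0.11 and 0.20 in group 1 and of -0.73 and -0.47 in group 2. The groups did not overlap, and the difference of 0.76 ± 0.21 did not pass (adjusted p = 0.0851). GINS1, a subunit of the GINS complex that helps the helicase work, differed by 0.71 ± 0.23 (adjusted p = 0.107), and its 3 probes gave 0.71, 0.87 and 0.82. ORC1, part of the origin recognition complex, had -3.41 and -3.28 in group 1 and -4.20 and -3.26 in group 2. Only group 2 replicate 1 was low for ORC1, and without it the difference was -0.08.

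PCNA, the sliding clamp of the polymerases and a common marker of cycling cells, ran the other way. Its signals were 0.23 and 0.49 in group 1 and 0.86 and 0.55 in group 2, with a difference of -0.35 ± 0.24 (adjusted p = 0.343). The lowest group 2 value stood only just above the highest of group 1. RRM1, the large subunit of the enzyme that makes deoxyribonucleotides, differed by 0.10 ± 0.21 with overlapping groups. Over the 9 tested replication genes 1 rose and 0 fell (5.75% and 3.92% of all genes). An unadjusted p under 0.05 (limma) was seen for 3 on the higher side and 1 on the lower (19.1% and 12.5% of all genes). The median difference of the 9 was 0.33. The median over all genes was 0.14.

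**Figure D2:**
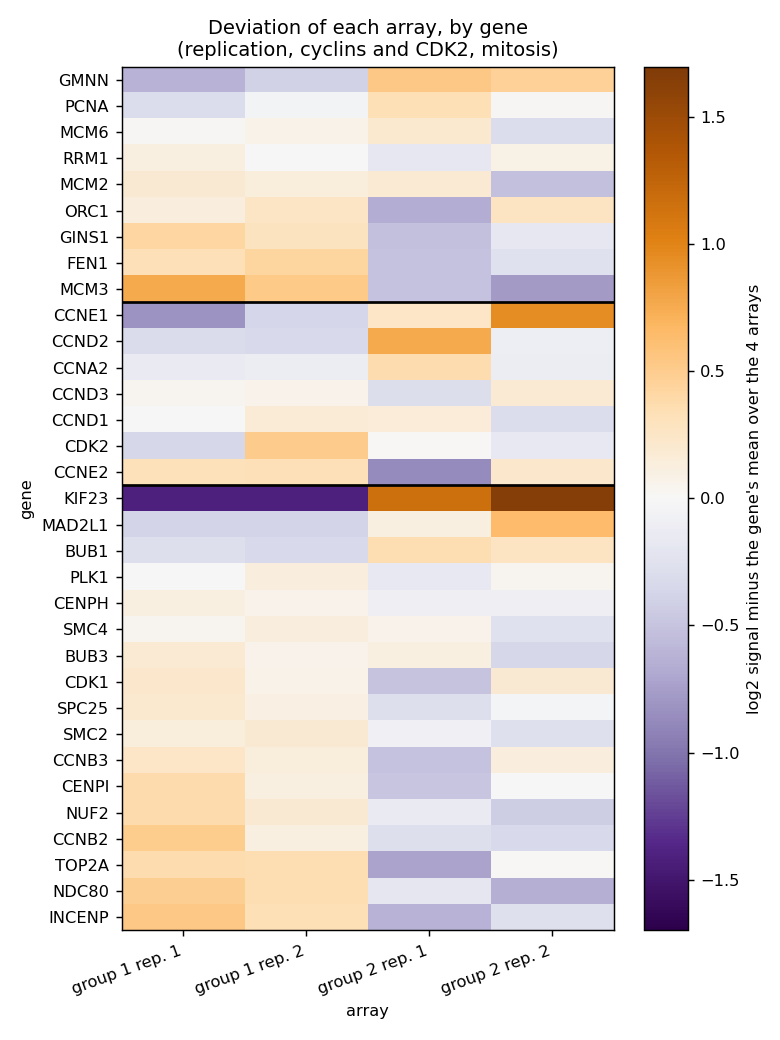
Deviation of each array from the gene's own mean over the 4 arrays, in log2 units by colour, for the 33 measured members (rows) and the 4 arrays (columns), with lines between replication, cyclins with CDK2, and mitosis. KIF23 shows the widest contrast between the groups, and the group 2 arrays differ from each other in many rows, such as CCNE2, TOP2A and ORC1.

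None of the 7 cyclins and CDK2 passed the test (limma), and 1, CCNE1, had an unadjusted p under 0.05, as did 31.6% of all genes. CCNE1 encodes cyclin E1, the partner of CDK2 at the entry to DNA synthesis. Its signals were -3.85 and -3.40 in group 1 and -2.79 and -2.08 in group 2, and the groups did not overlap. The difference was -1.19 ± 0.34 (adjusted p = 0.0863), and -1.54 without group 2 replicate 1. Its relative cyclin E2 (CCNE2) had -4.13 and -4.12 in group 1 and -5.32 and -4.23 in group 2. The low value on group 2 replicate 1 made up most of the difference of 0.65 ± 0.41, and without that array it was 0.10.

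The D-type cyclins bind CDK4 and CDK6 and answer to growth signals. CCND1 had 1.82 and 1.99 in group 1 and 1.98 and 1.53 in group 2, an overlap, with a difference of 0.15 ± 0.25. CCND2 had -1.32 and -1.34 in group 1 and -0.24 and -1.10 in group 2. Group 2 replicate 1 was high for CCND2, and the difference of -0.66 ± 0.34 (adjusted p = 0.238) was -0.23 without it. CCND3 differed by 0.11 ± 0.25. CCNA2, the cyclin that serves both DNA synthesis and entry into mitosis, differed by -0.25 ± 0.25, and CDK2 itself by 0.16 ± 0.35. The median of the 7 was 0.11, close to that of all genes.

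Among the mitosis genes, KIF23 (NM_001030554, chromosome 10) stood far from the rest. Its log2 signals were -1.99 on both arrays of group 1, with 0.59 and 1.08 in group 2. Those of group 1 nearly coincided, and the lowest group 2 value lay far above them. The difference was -2.83 ± 0.25 (limma, adjusted p = 0.0212). Before scaling, its intensity was 246 and 364 in group 1 and 1761 and 2697 in group 2. A second probe gave -3.24 and -2.77 in group 1 and -0.73 and 0.12 in group 2, a difference of -2.70 ± 0.37 (adjusted p = 0.0300). Without group 2 replicate 1 the difference of the brighter probe was -3.07, and without replicate 2 it was -2.58. KIF23 works as a pair with RACGAP1, for which no probe was matched here. PRC1, another protein of the spindle midzone, differed by 0.96 ± 0.22 (adjusted p = 0.0585), opposite in sign to KIF23.

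CDK1, the kinase that starts mitosis, had 0.11 and -0.03 in group 1 and -0.61 and 0.08 in group 2, an overlap, with a difference of 0.30 ± 0.30. Without group 2 replicate 1 that difference was -0.04. CCNB2 (0.61 ± 0.23, limma, adjusted p = 0.144) and CCNB3 (0.38 ± 0.29) are B-type cyclins that partner CDK1, and neither passed. The groups did not overlap for either, as for 68.1% of all genes. For CCNB3 they nearly met, at -1.75 in group 1 and -1.77 in group 2. Without group 2 replicate 1 the difference of CCNB3 was 0.07. The second probe of CCNB2 gave 0.14. PLK1, a kinase of mitotic entry and spindle assembly, differed by 0.12 ± 0.21.

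Next come genes of chromosome structure, none of which passed. TOP2A, which untangles DNA before chromosomes part, had 0.05 and 0.03 in group 1 and -1.04 and -0.31 in group 2. The groups did not overlap, group 2 replicate 1 was the lowest, and the difference of 0.72 ± 0.31 did not pass (adjusted p = 0.177). It was 0.35 without that array and 1.08 without replicate 2. The condensin cores SMC2 and SMC4 differed by 0.33 ± 0.20 and 0.18 ± 0.22. The 2 dimmer probes of SMC4 gave 1.15 (adjusted p = 0.0532) and 0.69, so the size of the difference depended on the probe.

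INCENP, the scaffold of the chromosomal passenger complex that corrects faulty spindle attachments, had -2.60 and -2.80 in group 1 and -3.76 and -3.40 in group 2. The groups did not overlap, and the difference of 0.88 ± 0.24 did not pass (adjusted p = 0.0779). NDC80, NUF2 and SPC25 are subunits of the complex that ties kinetochores to spindle fibres. NDC80 had -1.93 and -2.05 in group 1 and -2.59 and -3.06 in group 2, a difference of 0.84 ± 0.25 (adjusted p = 0.0932). For NUF2 (0.58 ± 0.22) and SPC25 (0.31 ± 0.21) group 1 also stood wholly above group 2 on the brightest probe, and none of the 3 passed. The second probe of NUF2 gave -0.36 and that of SPC25 -0.06, so only NDC80 kept its sign on both probes.

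The inner kinetochore gave little. CENPI differed by 0.49 ± 0.26 and CENPH by 0.17 ± 0.19. CENPA, the histone that marks the centromere, was well above background on group 1 replicate 2 alone, and CENPK on no array, so neither was tested. CENPH, CENPK and SMC2 are Z-linked in the gene table. On the array with the raised Z-linked signal CENPH was at -1.84, against -1.83 on the other group 2 array, and SMC2 was at -2.17 against -2.35.

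The spindle checkpoint delays the parting of chromosomes until all are attached, and 2 of its 3 members here were lower in group 1 without passing. BUB1 had 1.74 and 1.66 in group 1 and 2.35 and 2.28 in group 2, with no overlap and a difference of -0.62 ± 0.20 (adjusted p = 0.104). MAD2L1 had -1.25 on both group 1 arrays and -0.76 and -0.23 in group 2, a difference of -0.75 ± 0.26 (adjusted p = 0.120). Without group 2 replicate 1 the difference of MAD2L1 was -1.02. BUB3 differed by 0.24 ± 0.25 on its brightest probe, and its 4 probes ranged from -1.09 to 0.28. BUB1B, a checkpoint gene outside the members, differed by 0.64 ± 0.36 and did not pass, so the checkpoint genes did not share a direction. Over the 17 tested mitosis genes 0 rose and 1 fell (5.75% and 3.92% of all genes). An unadjusted p under 0.05 (limma) was seen for 2 on the higher side and 3 on the lower (19.1% and 12.5% of all genes). The median of the 17 was 0.31. Of these 17, 14 lay above 0 (82.4%), against 58.5% of all genes.

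**Figure D3:**
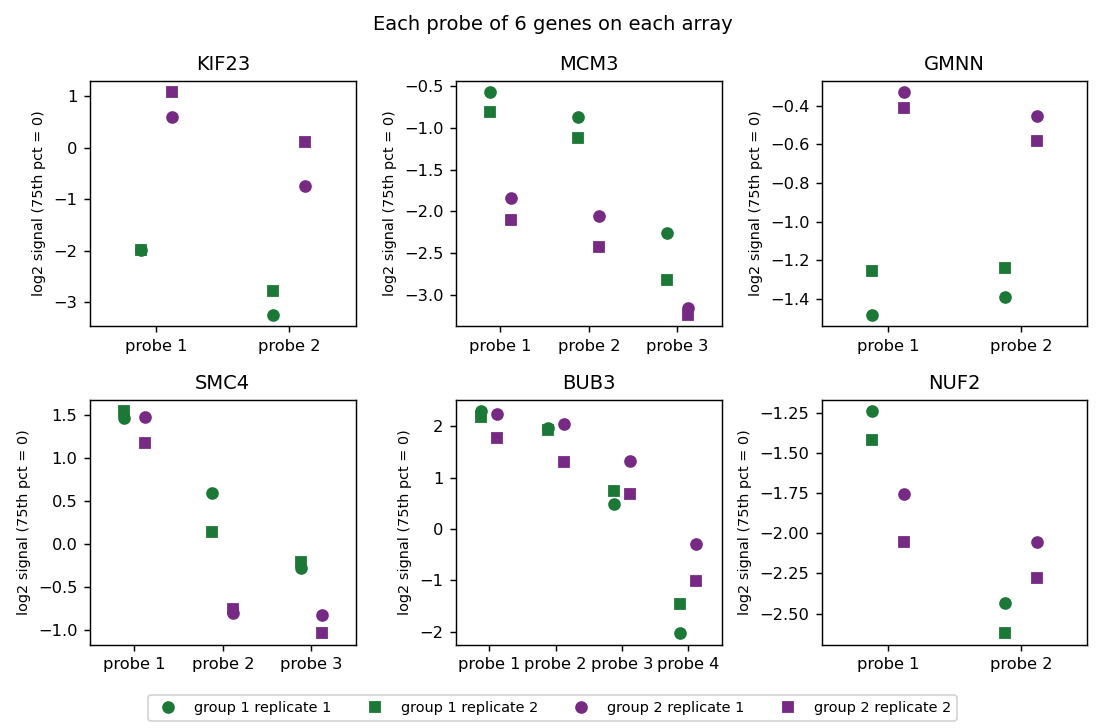
Log2 signal of every kept probe of 6 genes, ordered from the brightest, on each array (green for group 1, purple for group 2, circles for replicate 1 and squares for replicate 2). The genes were picked after their values were seen: the probes of KIF23, MCM3 and GMNN give the same order of the groups, while those of BUB3 and NUF2 do not and those of SMC4 differ in size.

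Probes of a member often disagreed. Of the 22 members with several kept probes, 14 had the same sign on all of them (63.6%), against 61.7% of 3157 genes of the whole array. The sign differed between probes for MCM2, MCM6, RRM1, CCND1, CCND3, BUB3, NUF2 and SPC25. The 2 probes of KIF23 and 2 of the 3 of MCM3 passed the test, and no probe of another member did. The third probe of MCM3 gave 0.66 (adjusted p = 0.159). The other 11 tested members rest on 1 probe each.

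The group 2 arrays also differed from each other in these genes. The median gap between arrays of a group was 0.12 log2 units in group 1 and 0.45 in group 2 over the 33 members, and 0.15 and 0.31 over all genes. The gap was wider in group 2 for 29 members (87.9%), against 69.2% of all genes. For 7 members the difference changed sign between leaving out one or the other group 2 array. The array labelled group 2 replicate 1 was the lowest of the 4 for 14 members, replicate 2 for 10. With the array labelled group 2 replicate 1 left out 6 members passed (18.2%, against 21.3% of all genes), and with replicate 2 left out 10 did (30.3%, against 23.4%). These fits have 1 group 2 array and take the spread from the tighter group 1 pair alone, so that more genes of every kind pass and a call gained there is no support. KIF23, MCM3 and GMNN were in both sets. CCNE1, MAD2L1 and NDC80 passed only without replicate 1, and ORC1, GINS1, FEN1, CCND2, CCNE2, TOP2A and INCENP only without replicate 2. With either one of the group 1 arrays left out, neither a member nor any other gene passed. KIF23 then had adjusted p = 0.273 and 0.210, and MCM3 had 0.339 and 0.230. The residual spread then came from the group 2 pair alone.

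Directions near 0 moved with the scaling. Of the 33 members 25 lay above 0, 22 after quantile normalization and 17 after scaling to array medians. The latter shifts every difference by -0.21, and so moved the median of all genes to -0.08. Among called genes 280 were higher and 191 lower in group 1, and 203 and 302 with median scaling. Set against the median of all genes, the replication median was 0.20 higher, the mitosis median 0.17 higher and that of the cyclins and CDK2 -0.02. With all probes of a gene averaged, the replication median was -0.05 against that of all genes.

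A wider set of cell cycle genes was read in the same way, and its lists did not all follow the members. Of 181 further genes, 96 were tested, and 4 rose and 2 fell (6.25%, against 9.67% of all genes). The lists were written with earlier results of these data known. The median difference was 0.14, the same as for all genes. Among 29 other replication genes only DNMT1 passed (3.45%, against 9.67% of all genes). It encodes the enzyme that copies DNA methylation onto the new strand, and it had -1.84 and -2.10 in group 1 and -3.35 and -3.26 in group 2. Its difference was 1.33 ± 0.21 (limma, adjusted p = 0.0355), or 0.76 with its probes averaged, where it did not pass (adjusted p = 0.101). DNMT1 also did not pass with the replicate number as a block (0.0581) or no filter on dim probes (0.0595). The median of that list was -0.19, below that of the replication members.

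Among 40 other mitosis genes CKAP2, a spindle-associated protein, was the 1 to pass (2.5%, against 9.67% of all genes). Its signals were -2.21 and -2.17 in group 1 and -3.91 and -3.45 in group 2, a difference of 1.49 ± 0.24 (limma, adjusted p = 0.0364). The groups stood far apart next to their own spread. It did not pass with its probes averaged (limma, adjusted p = 0.0521) or without the filter on dim probes (0.0597). The median of the list was 0.28, and 29 of the 40 lay above 0 (72.5%, against 58.5% of all genes). CENPL (1.03), CENPW (-0.11) and SGO1 (-0.13) passed the filter through group 1 alone, which favours a higher group 1.

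Genes of cell cycle entry and its brakes held 2 that rose and 2 that fell among 27 tested (14.8%, against 9.67% of all genes). MYC, a transcription factor that drives growth and division, had -0.34 and 0.02 in group 1 and -2.06 and -1.78 in group 2. It rose by 1.76 ± 0.24 (limma, adjusted p = 0.0301), and did not pass with no filter on dim probes (0.0512). RB1, the retinoblastoma protein that restrains E2F factors, rose by 1.08 ± 0.20 (limma, adjusted p = 0.0446). It did not pass with median scaling (0.0607), the replicate number as a block (0.0793) or no filter on dim probes (0.0728). With its probes averaged it differed by 0.80 and did not pass either (0.0763).

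LIN9, a subunit of the complex that switches mitosis genes on and off through the cycle, had -2.40 and -2.43 in group 1 and -1.13 and -0.99 in group 2. It fell by 1.35 ± 0.20 on the log2 scale (limma, adjusted p = 0.0323). LIN9 did not pass with the replicate number as a block (0.0537) or no filter on dim probes (0.0552). E2F6, an E2F factor that represses transcription, had -2.10 and -2.36 in group 1 and -1.24 and -0.99 in group 2. Its difference was -1.12 ± 0.23, and it passed narrowly (limma, adjusted p = 0.0492). E2F6 did not pass with the replicate number as a block (0.0819) or no filter on dim probes (0.0782). Nor did it pass with normexp background correction and the 75th percentile (limma, adjusted p = 0.0538).

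CDKN1A, the p21 inhibitor of cyclin-dependent kinases, was singled out after its values were seen, because it had the largest size in that list. Its signals were 1.74 and 1.84 in group 1 and 4.44 and 3.23 in group 2. Group 2 stood above group 1 on both arrays, and its own arrays were far apart. The difference of -2.05 ± 0.44 did not pass (adjusted p = 0.0547), and it was -1.44 without group 2 replicate 1 and -2.65 without replicate 2.

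**Figure D4:**
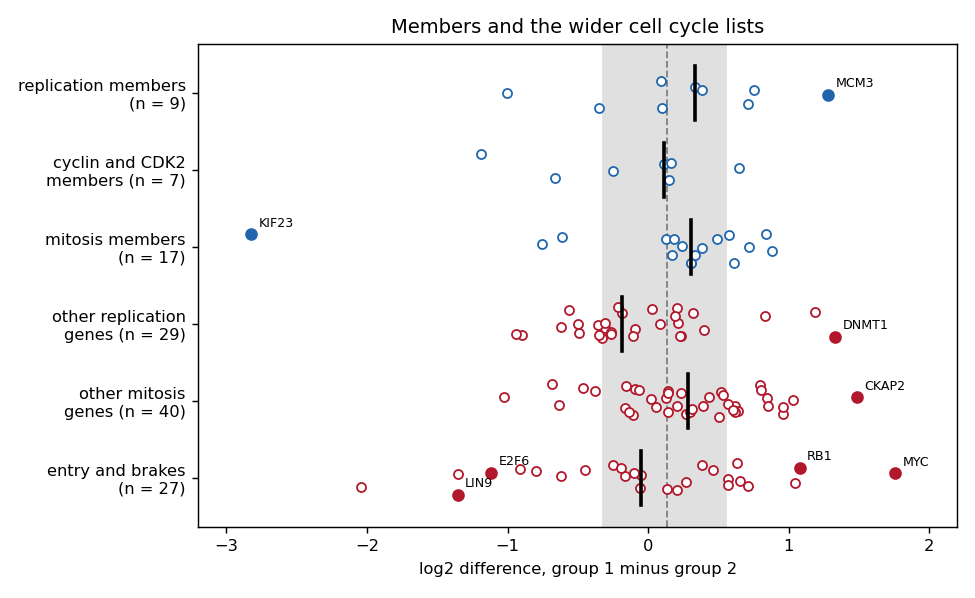
Log2 difference between the groups (group 1 minus group 2) for each tested gene of the 3 member classes (blue) and the 3 wider lists (red), with black bars at the list medians, the grey band and dashed line at the quartiles and median of all genes, and vertical position within a row without meaning. Filled, named points passed at an adjusted p under 0.05, 2 among the members and 6 in the wider lists, and the grey band runs from -0.32 to 0.56.

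Markers of some other cell types differed between the groups, and not all markers of a list had the same sign. The tissue label was checked on 9 tested hepatocyte markers, of which 0 passed (limma; 1 at an unadjusted p under 0.05). Their signals, in multiples of the 75th percentile and summed over 10 genes, were 1676 and 1222 in group 1 and 1564 and 1239 in group 2. RBP4 was not well above background on any array. Of 10 erythroid markers 3 rose (30.0%, against 5.75% of all genes), among them RHAG, which passed the filter through group 1 alone. The summed signals of the list were 378 and 312 in group 1 and 52.4 and 149 in group 2. The haemoglobin genes HBAA (1.84), HBAD (2.80) and HBBA (2.25) gave most of these sums and did not pass (limma, adjusted p = 0.0939, 0.0857 and 0.101). ALAS2 went the other way without passing (-0.06). Of 13 tested T and B lymphocyte markers 2 rose (15.4%), and BLNK went the other way without passing (-1.09). The list summed to 222 and 199.6 against 100.5 and 83.2, with PAX5 not well above background. Without CD74, which gave most of the sum, this was 45.7 and 45.4 against 24.5 and 30.7. Of 11 endothelial and stellate markers 6 rose (54.5%), with sums of 29.8 and 26.6 against 8.91 and 7.48. The 6 were COL1A2, COL3A1, COL5A1, LUM, DCN and PDGFRA, the last of which passed the filter through group 1 alone. The endothelial genes CDH5 (0.53), KDR (0.26) and FLT1 (0.72) did not pass. THY1 went the other way without passing (-0.34).

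Of 13 tested intestinal markers 9 rose in group 1 (69.2%, against 5.75% of all genes). RBP2, FABP2, CDX2, CDH17 and OLFM4 among them were not well above background on either group 2 array. These and MEP1A passed the filter through group 1 alone, which favours a higher group 1, so the share is only a description. FABP6 (-0.71) and EPCAM (-0.25) went the other way without passing. RBP2 was at least 199.5-fold, FABP2 at least 95.7-fold and CDX2 at least 31.6-fold higher in group 1, set against the dimmest signal well above background. For CDH17 this bound was 5.41-fold and for OLFM4 only 1.45-fold. The summed signals of the list were 155 and 136 in group 1 and 99.6 and 115 in group 2, with CFTR not well above background on any array. Without ANPEP, which did not pass and gave most of the sum, they were 25.8 and 24.4 against 12.02 and 14.96. Of 9 tested macrophage and heterophil markers 1 rose and 1 fell (22.2%, against 9.67% of all genes), with CD14 not well above background. The list summed to 30.7 and 29.3 in group 1 and 72.3 and 52.8 in group 2. LYG2, the one that fell, carried this order, and without it the sums were 16.6 and 16.5 in group 1 and 11.1 and 8.94 in group 2. Of 6 tested bile duct markers 1 rose and 1 fell (33.3%), with CFTR again not well above background. CLDN3, the one that rose, also stands in the intestinal list, as do EPCAM and CFTR. The bile duct list summed to 17.7 and 16.3 against 17.7 and 19.9. The part of these cells in the differences of KIF23, MCM3 and the other members was not tested.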

How the data were processed

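Liver RNA of 2 groups was read on 4 one-colour arrays. Per the file headers, the spot intensity (processed, median and local background) came from Agilent Feature Extraction 11.5.1.1. The flags for background and outliers hold no unit (other) and are deposited with them. The deposited series table holds log2 values by the authors. With both centred per probe, it followed the scaled log2 signal of the scanner files at r = 1 after rounding. Its column medians were 0.08, 0.02, -0.09 and -0.02. With this table the median group difference over all genes was 0.0027 higher.

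The processed intensity was divided by each array's 75th percentile (978, 1449.6, 1170.03 and 1278) and log2 taken. Outlier spots (8 to 25 per array) were left out, no spot was saturated, and spots of a probe were averaged. Of 43603 probes, 33869 were well above background on both arrays of a group and 33866 were tested with limma 3.58.1 in R 4.3.3 and Benjamini-Hochberg adjustment. The test was checked on simulated data with the same spread for every probe and shifts larger than any member's difference. That check does not cover unequal spread or smaller differences. RefSeq accessions named 11935 probes (27.4%) through a gene table of GRCg7b. The array was drawn on galGal3, so positions are left out. The brightest of the kept probes stands for a gene.

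Members and lists were chosen with earlier results of these data known. Any member may be named. Array values are given for members past the test, the 3 largest differences of each class, PCNA, TOP2A, CDK1 and CCND1, and some others picked after their values were seen. Of other cell cycle genes those past the test are named, and PRC1, BUB1B and CDKN1A after their values were seen. A search of promoters for motifs was planned and not run, as no sequence was used here. The number of arrays limits the precision. Same-numbered replicates shared deviations at r = 0.03 across groups. The main test did not use the numbers as pairs, since they mark parts of different pools. An alternative setting used them as a block.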

Additional observations from a re-analysis of the deposited data

How the results depend on the processing

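Of 15 alternative settings, KIF23 passed in 12 and MCM3 in 8, and neither changed sign in any. Over the 33 members and 15 settings (495 values), 435 moved by less than the replicate SD or kept their call, 34 moved further without a call, 16 gained a call and 10 lost one. For values that moved, the cause was not tested, except that fewer arrays leave fewer degrees of freedom and no filter adds dim probes. With arrays scaled on their medians the median difference was 0.12 for replication genes, 0.092 for mitosis genes, -0.10 for cyclins with CDK2 and -0.079 for all genes. After quantile normalization it was 0.084, -0.16 and 0.058 for replication, cyclins with CDK2 and all genes. Normexp on median signals, chosen after the files were seen since they hold no mean signal, gave 2 replication calls, 10 among other cell cycle genes and a replication median of 0.15 with the 75th percentile. Followed by quantile normalization it gave 2, 10 and 0.058, with -0.062 for cyclins, 733 calls among all genes and an all-gene median of 0.046. Without a filter on dim probes 156 genes were called, 0 of 10 replication genes (limma; 4 at an unadjusted p under 0.05) and 0 of 100 other cell cycle genes (20). With probes well above background on all arrays 2 replication genes were called. Without moderation 0 replication, 0 mitosis, 0 other cell cycle and 0 of all genes passed (3, 3, 22 and 1220 unadjusted). With the replicate number as a block 300 genes, 2 other cell cycle genes and 0 replication genes (3 unadjusted) passed, and KIF23 still did; the samples share only a number. With the probes of a gene averaged, 0 replication genes passed (4 unadjusted), and medians were 0.031 for replication, -0.070 for cyclins and 0.085 for all genes. With 1 array left out, calls ranged from 0 to 5 for replication, 0 to 3 for mitosis, 0 to 2 for cyclins, 0 to 24 for other cell cycle genes and 0 to 1141 for all genes. The 0 counts were without group 1 replicate 1 or 2 (558 and 715 of all genes, 1 and 2 replication genes, 1 and 1 mitosis genes, and 8 and 9 other cell cycle genes at an unadjusted p under 0.05). Medians then ranged from 0.23 to 0.34 for replication, 0.25 to 0.42 for mitosis, -0.26 to 0.12 for cyclins and 0.091 to 0.17 for all genes.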
